A study of Arabidopsis thaliana with 9 samples.

Results

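The 3 genes COR47, COR15A and DI19 are named for induction by cold or drought, and this account follows their transcript levels in dark-grown Arabidopsis thaliana seedlings of 3 genotypes. They were found by annotated symbol, and each had 1 probe set named for it alone among the 22746 probe sets tested. The genes had been selected on their measured differences between these genotypes in earlier results of the same data, so their own values are given as a description without a test. COR47 (AT1G20440) and DI19 (AT1G56280) lie on chromosome 1, and COR15A (AT2G42540) on chromosome 2.

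All seedlings were of the Columbia-0 ecotype and spent 108 h in darkness on solid medium that held 1% sucrose. Wild type (Col), the homozygous bri1-116 null mutant and AtGATA2ox, a transgenic line that overexpresses AtGATA2 in the Columbia background, were each measured on 3 single-colour Affymetrix arrays. BRI1 is the receptor kinase for brassinosteroids, plant steroid hormones that drive growth in the dark, and AtGATA2 is a transcription factor of the GATA type; the study set the genes that respond to each beside the other. The bri1-116 homozygotes were chosen one at a time from a population that also held heterozygotes, after freezing. The promoter of the AtGATA2ox transgene, the number of lines and the number of seedlings behind each array are stated in none of the sources used here. Neither AtGATA2 nor BRI1 had a named probe set, so the labels were not checked by the altered genes. Of the markers fixed for seedling tissues, the root hair gene EXPA7 read 15.3 to 123.9 over the 9 arrays and RCA, which encodes Rubisco activase of green tissue, read 2949.1 to 10458.2, and the seed, shoot epidermis and flower markers had no named probe set.

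Plants that meet cold make CBF/DREB1 transcription factors, which bind a short element in the promoters of cold-regulated (COR) genes. Many of the same genes also respond to drought. Their response to the hormone abscisic acid runs through another element. COR47 encodes a dehydrin, a hydrophilic protein made in drying or chilled tissue. COR15A encodes a small hydrophilic protein of the chloroplast stroma that protects membranes during freezing. DI19 encodes a zinc finger protein of a small family first found as a drought-induced transcript. None of the labels mentions a cold or drought treatment, and all levels here are those of seedlings grown in the dark.

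Values are deposited intensities, a linear scale with no fixed unit, given for each array or as mean ± SD over n = 3 arrays. Levels of different probe sets are not compared with each other. Probe sets for Bacillus genes, controls without a plant target, read between 0.6 and 84.1 over the 9 arrays, with a median of 9.9, and an intensity in that range cannot be told from background. For actin, the 3′ to 5′ signal ratio, a measure of how far RNA or cDNA was shortened, lay between 1.81 and 2.03 on the Col arrays. On the bri1-116 arrays it lay between 2.86 and 4.88, and on the AtGATA2ox arrays between 3.66 and 5.45. The GAPDH ratio overlapped between genotypes, at 0.955 to 1.26, 1.21 to 1.47 and 1.11 to 1.32 in that order. The mean log2 intensity of the hybridisation controls was 10.04 to 10.21, 10.39 to 10.72 and 10.9 to 11.31. In whole seedlings, fewer cells of a type and less RNA per cell cannot be told apart.

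COR47 had the clearest separation of the 3 genes, with a high level in wild type, an intermediate level in bri1-116 and a low level in AtGATA2ox. On the Col arrays it read 4368.9, 4316.8 and 3465.6. On the bri1-116 arrays it read 878.8, 1062.3 and 1122, and on the AtGATA2ox arrays 297.2, 334 and 375.8. Every bri1-116 array was below every Col array and above every AtGATA2ox array. Means were 4050 ± 507 (Col), 1021 ± 127 (bri1-116) and 336 ± 39.3 (AtGATA2ox), so the spread within a genotype was 11.7% to 12.5% of its mean. Even the lowest AtGATA2ox array lay above the range of the Bacillus controls.

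On the log2(intensity + 1) scale the COR47 difference between AtGATA2ox and Col was -3.59 ± 0.16 (SE from the fit of all arrays), or 12-fold lower. Between bri1-116 and Col it was -1.99 ± 0.16, or 3.96-fold lower. Set directly against bri1-116, the difference in AtGATA2ox was -1.60 ± 0.16, or 3.03-fold lower. These comparisons share arrays, so they are not independent of each other. The arrays of COR47 did not overlap in any of them, as was also the case, in the lower direction, for 25.7% of all probe sets between AtGATA2ox and Col, 19.3% between bri1-116 and Col and 23.1% between AtGATA2ox and bri1-116. Of all probe sets tested, 0.396% had a lower log2 difference than COR47 between AtGATA2ox and Col, 2.68% between bri1-116 and Col and 7.27% between AtGATA2ox and bri1-116.

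Ranks within an array do not depend on how the array was scaled. Among the probe sets of its array COR47 stood above 95.5% to 96.8% on the Col arrays, 83.4% to 86.2% on those of bri1-116 and 68.7% to 74.1% on those of AtGATA2ox. The order of the genotypes was thus the same by rank as by intensity. The actin ratio of every Col array (1.81 to 2.03) was below those of the other genotypes, while COR47 was highest in Col. Within bri1-116 the array with the highest actin ratio (4.88, replicate 3) had the highest COR47 level. Within AtGATA2ox the array with the highest ratio (5.45, replicate 1) had the lowest COR47 level. The AtGATA2ox array with the lowest ratio (3.66, replicate 2) had the middle level. RCA, a marker fixed for light-grown plants, read 2949.1 to 3392.4 on the Col arrays, 7683.6 to 10458.2 on those of bri1-116 and 4000.1 to 6258.3 on those of AtGATA2ox. As a single gene it cannot show how much of a tissue was present. The part of RNA length or of tissue makeup in the differences between genotypes was not tested.

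**Figure D1:**
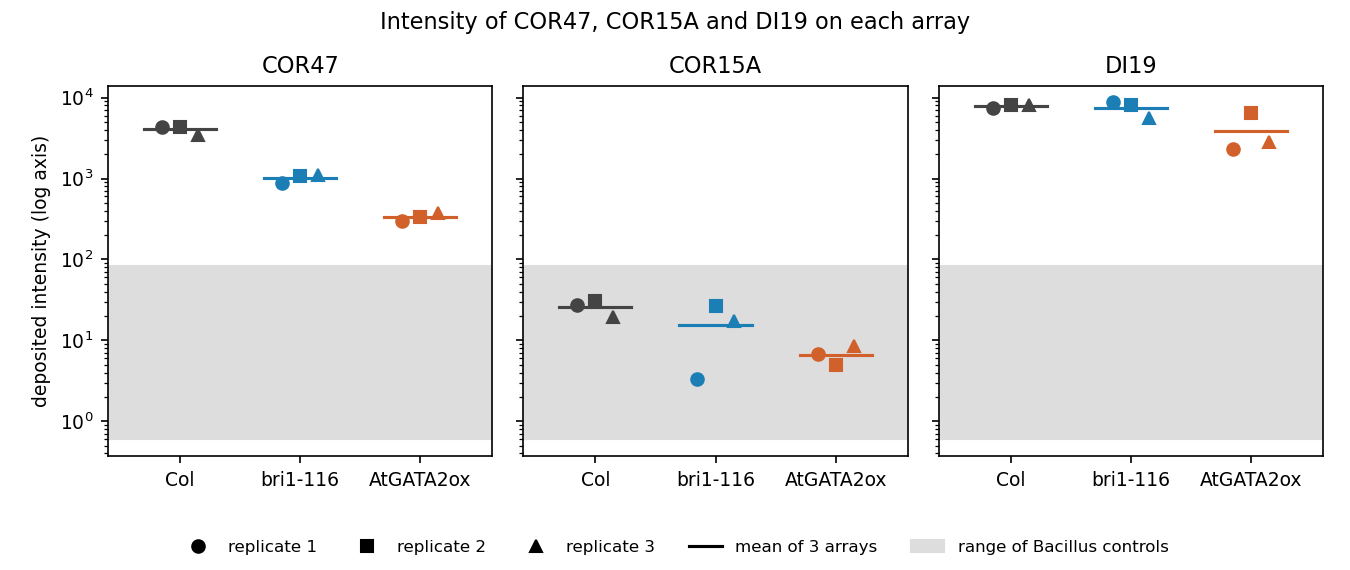
Intensity of COR47, COR15A and DI19 (log axis) on the 9 arrays, with symbols for the replicates, lines for the mean of 3 arrays and a grey band for the range of the Bacillus controls. COR47 falls into 3 separate levels, COR15A lies wholly inside the band (3.3 to 30.5), and DI19 has 1 AtGATA2ox array at 6545.2 far above the other two.

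DI19 was at a high level in wild type and bri1-116 and at a lower, uneven level in AtGATA2ox. The Col arrays read 7470.2, 8096.4 and 8162.9, and the bri1-116 arrays 8752, 8218.2 and 5572. The AtGATA2ox arrays read 2320.3, 6545.2 and 2812.7. All AtGATA2ox arrays lay below all Col arrays, as was the case for 25.7% of all probe sets. However, AtGATA2ox replicate 2 lay within the bri1-116 range, above bri1-116 replicate 3. Means were 7910 ± 382 (Col), 7514 ± 1703 (bri1-116) and 3893 ± 2310 (AtGATA2ox). The SD was 4.83% of the mean for Col, 22.7% for bri1-116 and 59.3% for AtGATA2ox.

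The log2 difference of DI19 was -1.18 ± 0.31 (SE) between AtGATA2ox and Col, or 2.26-fold lower, and -1.08 ± 0.31 between AtGATA2ox and bri1-116, or 2.11-fold lower. Between bri1-116 and Col it was -0.10 ± 0.31, so the levels in Col and bri1-116 did not differ beyond their spread. Of all probe sets tested, 16.65% had a lower log2 difference than DI19 between AtGATA2ox and Col. The share was 16.62% between AtGATA2ox and bri1-116 and 45.6% between bri1-116 and Col. Without AtGATA2ox replicate 2 the difference from Col was -1.63, and without AtGATA2ox replicate 1 it was -0.88. By rank DI19 stood above 98.5% to 98.7% of probe sets in Col, 97.3% to 98.6% in bri1-116, and 92.8%, 97.6% and 93.6% on the AtGATA2ox arrays 1, 2 and 3.

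Within AtGATA2ox and bri1-116 the DI19 level was lowest on the array with the highest actin 3′ to 5′ ratio. In AtGATA2ox the ratio was 5.45, 3.66 and 5.28 on replicates 1, 2 and 3, and the array with the lowest ratio was the one with the high DI19 level. In bri1-116 the ratio was 3.73, 2.86 and 4.88, and DI19 was lowest on replicate 3, which had the highest ratio, and highest on replicate 1, which had the middle one. The 3 arrays with the highest ratio of all were the 3 arrays with the lowest DI19 level. At the other end, the highest DI19 levels (8752 and 8218.2) were on bri1-116 arrays with ratios of 3.73 and 2.86. Both ratios were above every Col ratio (1.81 to 2.03). The GAPDH ratio did not follow the same order, at 1.32, 1.17 and 1.11 on the AtGATA2ox arrays and 1.47, 1.27 and 1.21 on the bri1-116 arrays. The mean log2 intensity of the hybridisation controls was 11.31, 10.9 and 11.28 on the AtGATA2ox arrays, lowest again on replicate 2. On the bri1-116 arrays it was 10.72, 10.39 and 10.65, and there the array with the highest value (replicate 1) had the highest DI19 level. The part of RNA length or of hybridisation in the DI19 difference was not tested.

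**Figure D2:**
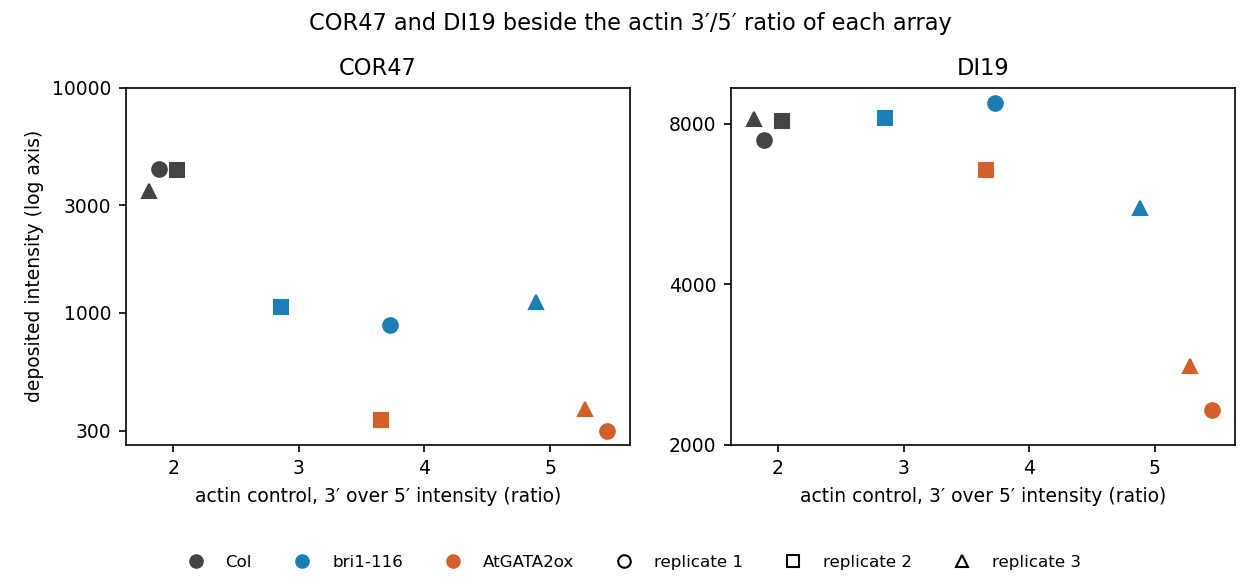
Intensity of COR47 and DI19 (log axis) against the 3′ to 5′ intensity ratio of the actin control, 1 point per array, coloured by genotype. The DI19 points at ratios of 4.88, 5.28 and 5.45 are the lowest of the 9, and the highest DI19 point is at a ratio of 3.73. The Col ratios (1.81 to 2.03) do not overlap those of the other genotypes.

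COR15A stayed at background level on all 9 arrays. Its Col values were 27.5, 30.5 and 19.7, those of bri1-116 3.3, 26.4 and 17.1, and those of AtGATA2ox 6.7, 4.9 and 8.4. Each of these values lies below the highest Bacillus control of its own array. The AtGATA2ox arrays were below the Col arrays, as was the case for 25.7% of all probe sets. The lowest value of all was on bri1-116 replicate 1, and of the other 2 bri1-116 arrays 1 lay inside the Col range and 1 just below it. Means were 25.9 ± 5.57 (Col), 15.6 ± 11.6 (bri1-116) and 6.67 ± 1.75 (AtGATA2ox).

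The log2 difference of COR15A was -1.81 ± 0.82 between AtGATA2ox and Col, -1.04 ± 0.82 between bri1-116 and Col and -0.77 ± 0.82 between AtGATA2ox and bri1-116. Its size depended on the constant added before the logarithm, and with 64 in place of 1 the first of these was -0.35. No change of the COR15A transcript can be read from values in this range. By rank COR15A stood above 17.3% to 21.5% of probe sets for Col, 2.48% to 20.1% for bri1-116 and 6.79% to 10.8% for AtGATA2ox. COR15B (AT2G42530), the neighbouring gene that encodes a close relative of COR15A, read 52.6 to 99.7 over the 9 arrays, around the top of the Bacillus range. Its means were 66.1 ± 10.7 in Col, 73.6 ± 23.7 in bri1-116 and 69.1 ± 24.5 in AtGATA2ox, and it was not called in any comparison (limma adjusted p = 0.98 for AtGATA2ox and 0.93 for bri1-116 against wild type, and 0.91 between the pair).

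The measured gene next to COR47 on the chromosome showed another pattern, while those next to DI19 lay around the background range. AT1G20430, beside COR47, read 583.2 to 693.5 for Col, 943.3 to 1177.1 for bri1-116 and 704.1 to 908.9 for AtGATA2ox. It rose in bri1-116 (0.70 ± 0.16, limma adjusted p = 0.0082), a call lost without bri1-116 replicate 1 (0.62), with eBayes without a trend, and with scaling to the hybridisation controls (0.23). In AtGATA2ox AT1G20430 was at 0.31 ± 0.16 against Col (adjusted p = 0.18), was called as higher with quantile normalisation (0.54) or median centring (0.65), and as lower with scaling to the hybridisation controls (-0.74). ERD10, the dehydrin gene on the other side of COR47, had no named probe set. The neighbours of DI19, AT1G56270 and AT1G56290, read 46.1 to 118.2 and 10.7 to 119.3, around the upper end of the Bacillus range, and neither was called in any comparison as deposited. The mean of AT1G56290 was lowest in AtGATA2ox, as for DI19 (62.7 in Col, 93.7 in bri1-116 and 43.4 in AtGATA2ox). That of AT1G56270 was highest there (69.4, 59.2 and 79.1 in the same order). AT1G56290 was called as lower in AtGATA2ox than in Col (-1.88) and bri1-116 (-1.97) with scaling to the hybridisation controls.

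A list of 95 further genes of cold, drought and abscisic acid responses was compared in the same way, and 14 of them had a probe set of their own. By role these were 1 of 16 regulators, 3 of 22 cold-regulated genes, 5 of 13 dehydrins and related proteins, 1 of 16 drought-induced genes and 4 of 10 genes around DI19. None of 18 abscisic acid genes had one, nor did any CBF, DREB or ICE1 gene. In AtGATA2ox 5 of the 14 were called as higher and 2 as lower against Col. Of all 22746 probe sets 28.5% were called there, 2211 as higher and 4275 as lower. The median log2 difference of the 14 was 0.38 against -0.17 over all probe sets. Scaling to the hybridisation controls moved the median of all probe sets by -1.05, and 1 of the 14 was then higher and 5 were lower. In bri1-116 2 rose and none fell, at a background of 15.1% (1612 probe sets higher and 1819 lower). The median was -0.03 against -0.02 over all. Between AtGATA2ox and bri1-116 4 were higher and none lower, at a background of 26.8% (2172 higher and 3914 lower). The median there was 0.28 against -0.16 over all. With the scaling to the hybridisation controls the counts among the 14 were 1 higher and 1 lower in bri1-116, and 1 higher and 3 lower between AtGATA2ox and bri1-116.

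STZ, a zinc finger repressor gene induced by cold, drought and salt, was the one regulator measured. The Col arrays read 144.1, 472.2 and 522.8, those of bri1-116 252.2, 143.6 and 327.9, and those of AtGATA2ox 2864.5, 2618.3 and 2592.3. Means were 380 ± 206 (Col), 241 ± 92.6 (bri1-116) and 2692 ± 150 (AtGATA2ox), and the Col and bri1-116 arrays overlapped. STZ rose in AtGATA2ox against Col (3.03 ± 0.41, limma adjusted p = 0.00011). Against bri1-116 it was 11.7-fold higher in AtGATA2ox (3.55 ± 0.41, limma adjusted p = 3.3e-05), and between bri1-116 and Col it was at -0.53 ± 0.41 (adjusted p = 0.49), and at -1.12, called, without Col replicate 1, the lowest of the Col arrays.

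Of the cold-regulated genes, COR27, which encodes a small nuclear protein that represses clock genes, read 272.8, 268.7 and 239.8 in Col, 202.9, 253.5 and 336.4 in bri1-116 and 477.7, 591.1 and 686.3 in AtGATA2ox. It rose 2.22-fold in AtGATA2ox against Col (1.15 ± 0.23, limma adjusted p = 0.002) and 2.23-fold against bri1-116, with both calls lost on scaling to the hybridisation controls (0.10 and 0.58). COR27 in bri1-116 was at -0.01 ± 0.23 against Col (adjusted p = 0.99). AT4G33980, listed here from background knowledge with no name in the reference table, was called as lower in AtGATA2ox (-2.37 ± 0.72, adjusted p = 0.025). It read 72.8 to 80.1 on the Col arrays and 4.6 to 36.4 on the AtGATA2ox arrays. All these values lie within the Bacillus range over all arrays (0.6 to 84.1). By that limit, no fall of the AT4G33980 transcript can be read from them. Set against the highest Bacillus control of its own array, each Col value lay above it (39.6, 63.9 and 46.2). Each AtGATA2ox value lay below it (84.1, 58.1 and 63.3). The AT4G33980 difference shrank to -1.52 and -0.79 with pseudocounts of 16 and 64. Its call was lost with quantile normalisation (-2.25), with centring on the median (-2.03), in the fit of the 2 genotypes compared, and without any 1 of the Col arrays or AtGATA2ox replicate 1.

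Of the 5 measured dehydrins of the list, 1 fell and 1 rose in AtGATA2ox against Col. HIRD11 (AT1G54410), a small dehydrin gene, read 841.1, 1058.7 and 889.3 in Col, 449.7, 470 and 872.9 in bri1-116 and 409.3, 489.1 and 471.1 in AtGATA2ox. AT1G54410 fell 2.03-fold in AtGATA2ox (-1.02 ± 0.23, limma adjusted p = 0.0048), a call lost with centring on the median (-0.68). In bri1-116 replicate 3 lay within the Col range and the other 2 arrays near the AtGATA2ox level (-0.70 ± 0.23, adjusted p = 0.061, and -1.01, called, without replicate 3). LTI30, a dehydrin gene induced by low temperature, read 113.8 to 148 for Col, 96.8 to 157.9 for bri1-116 and 64.1 to 148.4 for AtGATA2ox. LTI30 was not called in any comparison, but was called as lower in AtGATA2ox than in Col (-1.43) once arrays were scaled to the hybridisation controls. LEA (AT2G21490) and AT4G39130 read 2.5 to 106.8 and 11.7 to 47.8, largely within the Bacillus range, and were not called, except that LEA was called as higher in AtGATA2ox than in bri1-116 without AtGATA2ox replicate 2 (3.46). AT4G38410, listed from background knowledge as was AT4G39130, rose in AtGATA2ox, at 87.1 to 176.3 against 13.3 to 56.7 for Col (1.95 ± 0.62, adjusted p = 0.032) and 27.6 to 42.6 for bri1-116 (1.87 ± 0.62, adjusted p = 0.04). The first call was lost without Col replicate 2 (1.31) and without AtGATA2ox replicate 1 or 2, the other without Col replicate 3, any 1 of the bri1-116 arrays or AtGATA2ox replicate 1 or 2, and both with scaling to the hybridisation controls. The Col and bri1-116 values of AT4G38410 lie within the Bacillus range, so the size of both differences rests on background values.

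DI21, another drought-induced gene of the series DI19 was named in, had its lowest level in Col. It read 546.2, 806.7 and 825.3 in Col, 1808.3, 1674.9 and 1545.9 in bri1-116 and 2538.8, 1436.5 and 2044.8 in AtGATA2ox. Means were 726 ± 156 (Col), 1676 ± 131 (bri1-116) and 2007 ± 552 (AtGATA2ox), and the bri1-116 and AtGATA2ox arrays overlapped. DI21 rose 2.73-fold in AtGATA2ox (1.45 ± 0.21, limma adjusted p = 0.00021) and 2.34-fold in bri1-116 (1.23 ± 0.21, adjusted p = 0.0013), and the former lost its call once arrays were scaled to the hybridisation controls (0.40).

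**Figure D3:**
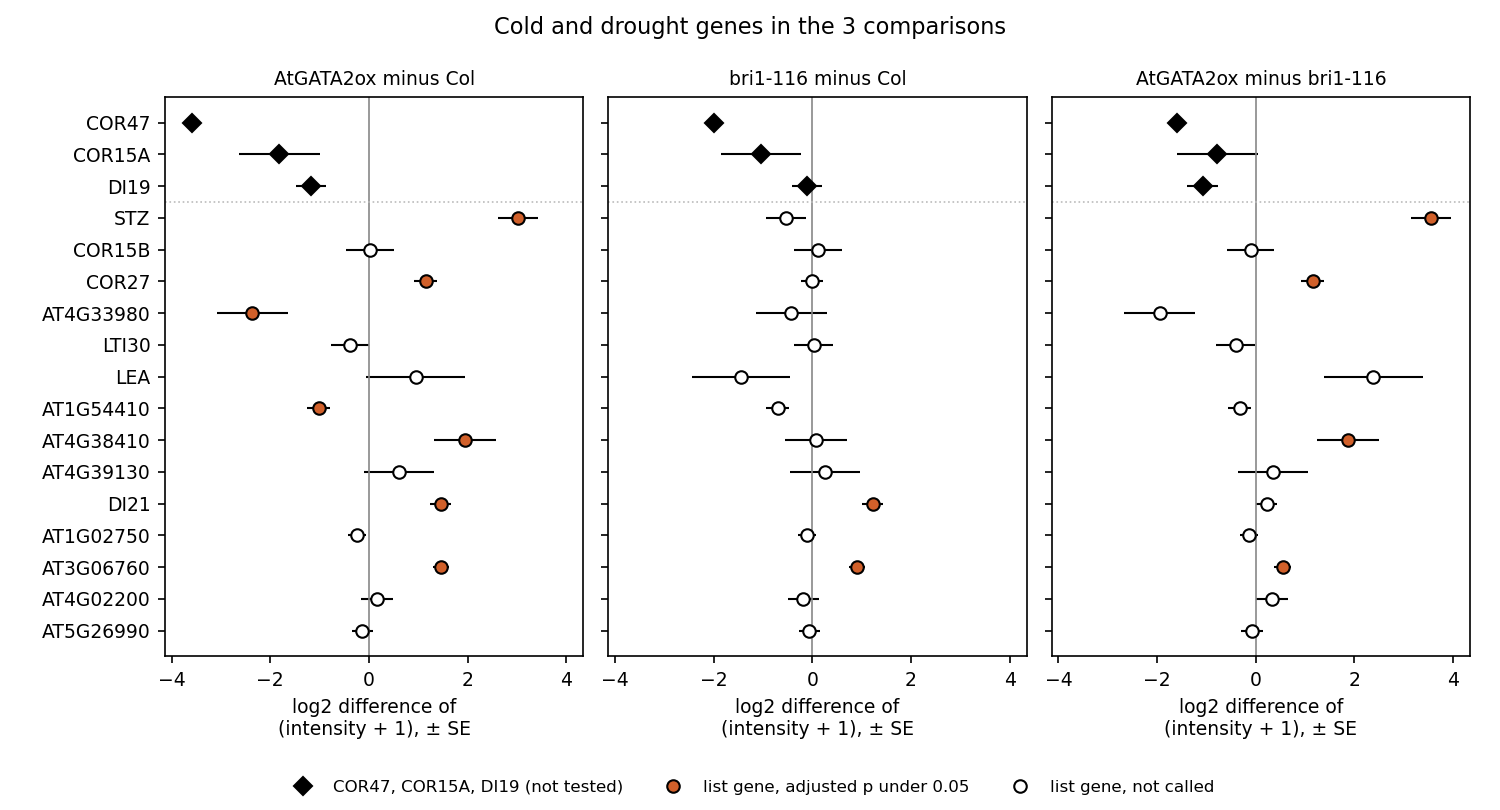
Log2 difference of (intensity + 1) ± SE in the 3 comparisons for COR47, COR15A and DI19 (diamonds, not tested) and the 14 measured list genes (circles, filled where the limma adjusted p is under 0.05). COR47 is at -3.59, -1.99 and -1.60. Of the list genes called in AtGATA2ox against Col, STZ, COR27, DI21, AT3G06760 and AT4G38410 lie above 0, and AT1G54410 and AT4G33980 below it.

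A further 4 loci entered the list as relatives of DI19 from background knowledge, since the reference table gives them no name. AT3G06760 read 1125.1, 1050.3 and 1079.4 in Col, 1849.7, 2195.9 and 2091.2 in bri1-116 and 2303, 3651.8 and 3168.1 in AtGATA2ox. The means of the 3 genotypes stood in the order opposite to that of COR47. AT3G06760 rose 2.75-fold in AtGATA2ox against Col (1.46 ± 0.17, limma adjusted p = 2.8e-05) and 1.88-fold in bri1-116 (0.91 ± 0.17, adjusted p = 0.002), and both calls were lost once arrays were scaled to the hybridisation controls (0.41 and 0.44). Between AtGATA2ox and bri1-116 it was higher by 0.55 ± 0.17 (adjusted p = 0.026), but at -0.03 with that scaling, and the call was also lost with quantile normalisation (0.44), with eBayes without a trend, in the fit of the 2 genotypes compared, and without any 1 of the bri1-116 arrays or AtGATA2ox replicate 2 or 3. On the AtGATA2ox arrays AT3G06760 was highest on replicate 2, as DI19 was. The other 3 relatives, AT1G02750, AT4G02200 and AT5G26990, were not called in any comparison as deposited and read 441.9 to 691.5, 110.7 to 225.6 and 351.6 to 544.2 over the 9 arrays. Their differences from Col lay between -0.24 and 0.16 in AtGATA2ox and between -0.18 and -0.06 in bri1-116. With scaling to the hybridisation controls AT1G02750 (-1.29) and AT5G26990 (-1.18) were called as lower in AtGATA2ox than in Col, and AT1G02750 (-0.72) also against bri1-116.

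The genes whose profile was most like each of the 3 were found by Pearson correlation over the 9 arrays, among 6877 or 6878 other probe sets of 1 named locus with a mean of at least 124.5 in some genotype. The arrays fall into 3 genotypes, so a high correlation mostly reflects the 3 genotype means, and it is given as a description. For COR47 the nearest were AT3G26450 (r = 0.996), ATPMEPCRD (r = 0.995), AT3G52060 (r = 0.993), AT3G26720 (r = 0.99) and AT1G12080 (r = 0.989). All 5 had a level in bri1-116 between those of Col and AtGATA2ox with no overlap. Their choice by likeness to COR47 over the same arrays favours this order. ATPMEPCRD (AT2G43050), for example, read 13108.4 to 14319 for Col, 2990.3 to 3149.7 for bri1-116 and 854.3 to 1403.6 for AtGATA2ox. The differences of the 5 between AtGATA2ox and Col ran from -5.25 for AT3G26450 to -1.20 for AT3G52060, on both sides of the -3.59 of COR47.

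For DI19 the nearest were AT1G55680 (r = 0.984), AT1G09920 (r = 0.98), AT1G70570 (r = 0.978), AT3G27110 (r = 0.975) and AT2G21120 (r = 0.974). Each had its highest AtGATA2ox level on replicate 2, as DI19 did, which their choice by likeness over the same arrays favours. The correlation after each genotype's mean was taken away, 0.936 to 0.975, comes from that choice too. AT1G09920, for example, read 190.4, 518.9 and 166.3 on the AtGATA2ox arrays, against 624.3 to 662.7 in Col. For COR47 the same measure within genotypes was 0.44 to 0.902. The 5 nearest to COR15A, at r = 0.906 to 0.921, were AT2G40570, TO2, AT5G42250, AT1G66440 and AT4G24630, and with COR15A at background level no more is read from them.

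**Figure D4:**
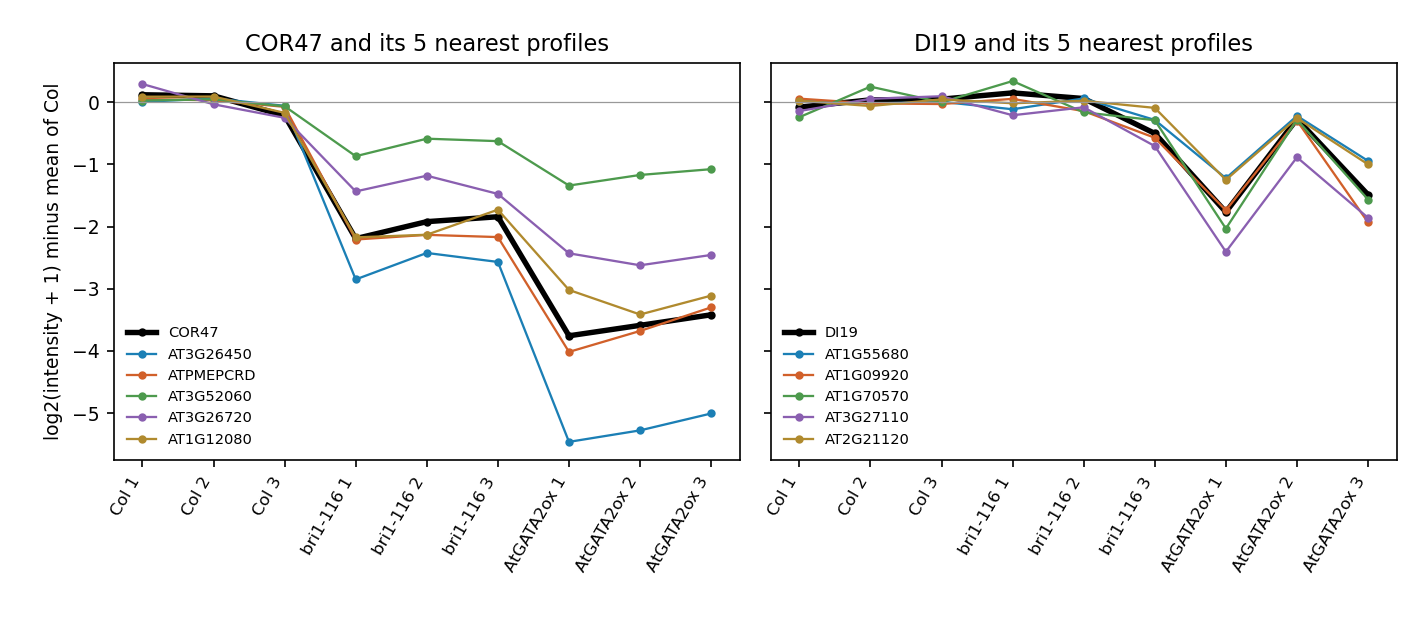
Log2(intensity + 1) of COR47 (left) and DI19 (right) in black with their 5 most similar genes in colour, relative to the mean of the Col arrays, over the 9 arrays in order of genotype and replicate. The COR47 group steps down in bri1-116 and again in AtGATA2ox, while the DI19 group is low on AtGATA2ox replicates 1 and 3 and closer to the Col level on replicate 2.

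Each array was scaled by the authors to a common mean, so every difference is relative to that scale. Against the reported -3.59, COR47 in AtGATA2ox was at -3.48 with quantile normalisation, -3.25 with centring on the median and -4.64 with scaling to the hybridisation controls. In bri1-116 it was at -2.11, -1.85 and -2.46 in the same order, against -1.99. The DI19 difference between AtGATA2ox and Col was -1.43, -0.84 and -2.23, and that between bri1-116 and Col was -0.27, 0.04 and -0.57. COR47 and DI19 in AtGATA2ox kept their direction under each of these scalings, and DI19 in bri1-116 did not.

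**Figure D5:**
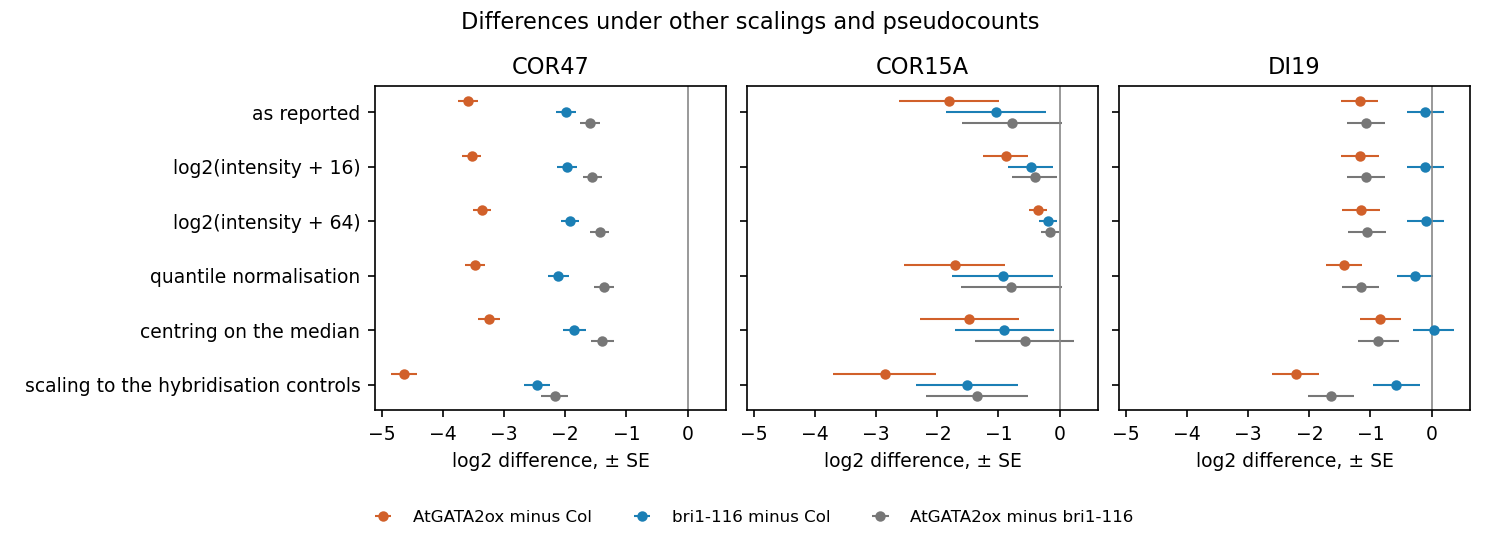
Log2 differences ± SE of COR47, COR15A and DI19 in the 3 comparisons as reported and with other pseudocounts and scalings. COR47 stays between -4.64 and -1.37 throughout, COR15A shrinks towards 0 as the pseudocount grows, and DI19 in bri1-116 against Col crosses 0 with centring on the median (0.04).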

How the data were processed

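Total RNA of 9 samples was labelled with biotin from 10 µg each and hybridised to single-colour arrays, per the labels' protocols. The authors deposited 1 intensity for each probe set on each array, on a linear scale from 0.1 to 61453.6. Per the submitters' processing notes the software was MAS5 and GCRMA, but neither their versions nor which of them gave these values is stated. On each array the mean without the lowest and highest 2% came to 500 or 500.1, so the arrays were scaled to a common mean. The sources used here give no genome build and no detection calls.

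Of 22810 probe sets, 64 controls were set aside. The platform annotation paired 13513 of the rest with 1 gene, 503 with several (left out of naming), and did not list 8730. Locus names came from the RefSeq table of TAIR10.1.

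The deposited intensities were taken as log2(intensity + 1), and all 9 arrays entered a single limma model (version 3.58.1, R 4.3.3; lmFit, eBayes with trend), with Benjamini-Hochberg adjustment over 22746 probe sets and calls at an adjusted p under 0.05. It was tested on simulated data. Precision is limited by 3 arrays per genotype, and since no label states separate cultures, the p-values reflect no more than the spread among these samples, possibly technical. The AtGATA2ox samples carry a separate block of record numbers, and whether they were hybridised with the others is not given, so run and genotype cannot be told apart. Named genes were COR47, COR15A, DI19, the measured list genes, chromosomal neighbours and the 5 nearest profiles of each. The members and lists were chosen with earlier results of these data known. Same-numbered replicates did not deviate together (r from -0.0181 to 0.0198 over 9 pairs), so the numbers were not taken as pairs.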

Additional observations from a re-analysis of the deposited data

How the results depend on the processing

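COR47 kept its sign in all 3 comparisons under every alternative run (2 other pseudocounts, 3 scalings, a filter on dim probe sets, eBayes without a trend, fits of 2 genotypes, the replicate block and each array left out). In AtGATA2ox against Col it moved by more than 1 residual SD with log2(intensity + 64) (-3.36), centring on the median (-3.25) and scaling to the hybridisation controls (-4.64), which also moved COR15A (-2.86), DI19 (-2.23) and COR47 in bri1-116 (-2.46). COR15A moved to -0.88 and -0.35 with 16 and 64 as pseudocount, and in bri1-116 to -0.18 with 64. Between AtGATA2ox and bri1-116 COR47 was at -1.37 with quantile normalisation, -1.40 under median centring and -2.18 under scaling to the hybridisation controls, and DI19 at -1.65 with the last. DI19 in bri1-116 crossed 0 with centring on the median (0.04). COR15A has no value without the dimmest 40% of probe sets, since it is among them.

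With 1 array left out, COR47 ranged from -3.70 to -3.50 (AtGATA2ox against Col), -2.10 to -1.88 (bri1-116 against Col) and -1.71 to -1.52 (AtGATA2ox against bri1-116). DI19 ranged from -1.63 to -0.88, -0.22 to 0.10 and -1.53 to -0.78 in that order, and COR15A from -1.99 to -1.64, -1.59 to -0.25 and -1.56 to -0.23. Called list genes numbered 5 to 7, 2 to 3 and 2 to 4, where the 4 between AtGATA2ox and bri1-116 became 2 without any 1 of the bri1-116 arrays. Called probe sets numbered 4794 to 6641, 2152 to 4115 (2152 without Col replicate 2) and 4582 to 6316.

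Over all probe sets, AtGATA2ox against Col had 6486 calls, and 12467 with scaling to the hybridisation controls. Of the 6486, 2211 were higher and 4275 lower, a split that became 2685 to 2998 under quantile normalisation, 3465 to 2501 under median centring and 421 to 12046 under scaling to the hybridisation controls. For bri1-116 against Col the 3431 calls became 2104 without a trend and 5182 with only the 2 genotypes compared. With the replicate block the list counts were 7, 3 and 4, the third call in bri1-116 being AT1G54410 (-0.70), and no other named list gene or neighbour changed its call. AT1G20430 in AtGATA2ox against Col turned to -0.74, and AT3G06760 between AtGATA2ox and bri1-116 to -0.0251, with scaling to the hybridisation controls. The causes of these shifts were not tested.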

Other observations

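Array-to-array spread like that of DI19 was most frequent in AtGATA2ox. Among 12950 probe sets with a mean of at least 124.5 in some genotype, AtGATA2ox replicate 2 was at least 2-fold above both other AtGATA2ox arrays at 452 (3.49%), a group that includes DI19. The same count was 371 for AtGATA2ox replicate 1 and 141 for replicate 3, against 35 to 84 for the Col arrays and 59 to 68 for the bri1-116 arrays. Counts of probe sets at least 2-fold below both other arrays were 281, 338 and 529 in AtGATA2ox, 203, 55 and 60 in Col, and 152, 79 and 221 in bri1-116, for replicates 1, 2 and 3. This count was made after the DI19 values were seen.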
